A study of Homo sapiens with 4 samples.

Results

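Peaks of H3K27ac of 2 to 10 kb that were called in REH and had no called counterpart in 697 are described here. REH is a B-cell precursor acute lymphoblastic leukemia (BCP-ALL) cell line with the ETV6/RUNX1 fusion that lacks its remaining wild type ETV6 allele, and 697 is a BCP-ALL cell line without this fusion. Both were grown untreated, and 1 ChIP library and 1 input library were made from each. A REH peak was called REH-only when it lay on an autosome, was at least 2000 and under 10000 bp long (2 to 10 kb) and had no 697 peak over it or within 1000 bp of either end. The members were thus chosen by the positions and lengths of called peaks in the REH and 697 lists. The rule held for 1262 of the 9715 autosomal REH peaks of that length, which is 13.0% (95% Wilson interval 12.3 to 13.7), out of 44626 peaks in the REH list and 119130 in both lists. Among autosomal REH peaks of any length the same distance rule held for 14142 of 43547, or 32.5%. The comparison peaks were the 8394 REH peaks of the same length range that overlapped a 697 peak by at least 1 bp. The remaining 59 peaks did not overlap a 697 peak but had one within 1000 bp, and they enter neither set.

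Acetylation of lysine 27 of histone H3 is laid down by the acetyltransferases p300 and CBP and marks the nucleosomes next to active promoters and enhancers. Short peaks usually flank single regulatory elements, while longer ones cover strong promoters or groups of neighbouring enhancers. Enhancers differ more between cell types than promoters do. Whether a given peak is a promoter or an enhancer was not analysed here, since the gene annotation at hand is on GRCh38 and the peaks are on hg19. For the same reason genes are not named for the peaks, the B-cell identity of the lines was not checked at marker genes, and no sequence is shown.

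The tags that remained after removal of duplicates numbered 65241657 in REH and 68911420 in 697, and the 697 list is the longer, with 73460 autosomal peaks. As there was 1 library per cell line, a difference between the lists has no replicate check, and cell line, library and copy number cannot be told apart. REH-only therefore means that no 697 peak was called there, not that the mark was absent from 697. All intervals cover counting error over peaks, which are not replicates, and no test was made.

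Because the rule fixed both length and distance, the values on these measures are a description. The REH-only peaks were 2000 to 9495 bp long with a median of 2655 bp (95% binomial interval 2595 to 2722), and the comparison peaks had a median of 2895 bp (2868 to 2926). REH-only peaks were a smaller share of the longer peaks. They were 800 of 5310 peaks of 2 to 3 kb (15.1%), 273 of 2192 peaks of 3 to 4 kb (12.5%), and 22 of 365 peaks of 7 to 10 kb (6.03%). A longer peak covers more bases over which a 697 peak can fall, and lengths were not matched here.

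Just inside the limits, the shortest members were 2000, 2001 and 2001 bp long, and the smallest distances to a 697 peak were 1001, 1017 and 1063 bp. Just outside, peaks that met the distance rule were 1999, 1998 and 1997 bp long, and the largest distances that failed it were 998, 963 and 959 bp. At the upper end, 12 REH peaks of 10000 bp or more met the distance rule and are not members, the shortest of 10428 bp on chromosome 1. A peak of 13328 bp on chromosome 1, from 245741419 to 245754746, and one of 15404 bp on chromosome 14, from 23089715 to 23105118, were among these and lay between members.

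The longest REH-only peak covered 9495 bp of chromosome 16, from 82780873 to 82790367, and the nearest 697 peak was 379865 bp away. Next were a peak of 8925 bp on chromosome 9 from 19556750 to 19565674 and a peak of 8866 bp on the same chromosome from 96672420 to 96681285, with 697 peaks at 3003 and 39412 bp. The fourth, of 8758 bp, lay on chromosome 17 from 47087969 to 47096726 and had its nearest 697 peak at 57723 bp. The fifth lay on chromosome 12 from 123021630 to 123030375 (8746 bp), with a 697 peak at 8858 bp. The others among the 10 longest were 8337 to 8733 bp long. They lay on chromosome 1 from 18987542 to 18996274 and from 236653959 to 236662605, on chromosome 19 from 7429208 to 7437834, on chromosome 6 from 135344130 to 135352656, and on chromosome 5 from 148221900 to 148230236. Distances among the 10 longest thus ran from 2646 bp, on chromosome 19, to 421442 bp, on chromosome 5. Over all members, those with a 697 peak at over 1000 to 5000 bp had a median length of 2493 bp (2427 to 2591), and those beyond 500000 bp one of 2943 bp (2623 to 3314).

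Distances from the REH-only peaks to the nearest 697 peak were spread over more than 3 orders of magnitude, from 1001 to 3561879 bp. The median was 18869 bp (95% binomial interval 16519 to 21928), with quartiles at 6066 and 81718 bp. The nearest 697 peak was more than 10000 bp away for 811 of 1262 (64.3%), more than 100000 bp away for 287 (22.7%), more than 500000 bp away for 63 (4.99%), and more than 1000000 bp away for 20 (1.58%). At the other end, 139 peaks (11.0%) had 697 peaks within 10000 bp on both sides. These peaks sat among called 697 peaks, and the others bordered on longer stretches without a 697 peak.

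**Figure D1:**
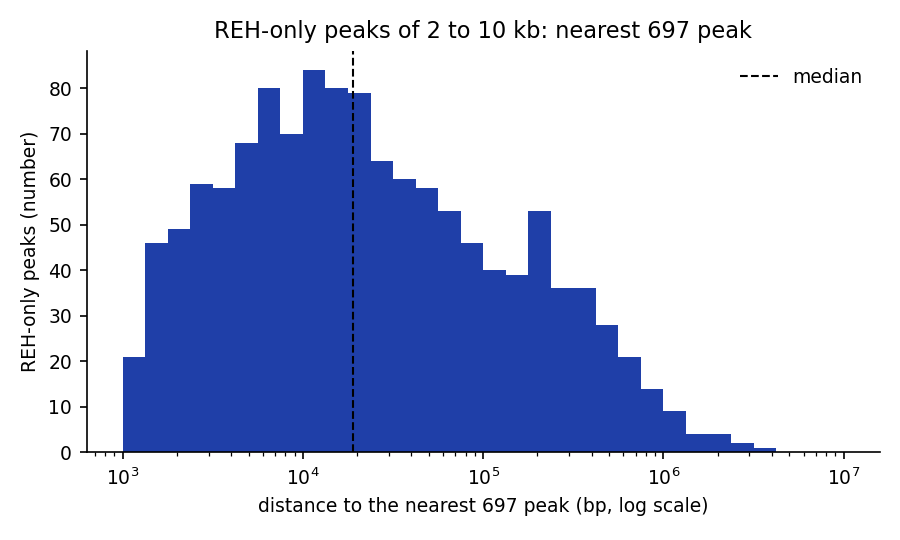
Number of REH-only peaks of 2 to 10 kb (y axis) by distance in bp to the nearest 697 peak (x axis, log scale), with the median of 18869 bp as a dashed line. The tallest bars stand near 10000 bp, and a long tail ends at 3561879 bp.

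The 3 peaks with the largest distances all lay on chromosome 4. They were found from 62138606 to 62141307 (2702 bp, 3561879 bp from a 697 peak), from 61678137 to 61680419 (2283 bp, 3101410 bp) and from 30605861 to 30609084 (3224 bp, 2941441 bp). Next came 3 peaks of chromosome 2 that lay side by side, from 194116794 to 194118969, from 194121595 to 194124208 and from 194141674 to 194144744. Their nearest 697 peak was 1981483, 1976244 and 1955708 bp away, in a stretch of 3989006 bp without a 697 peak that held 4 members and 16 REH peaks in all. The remaining 4 of the 10 were on chromosome 12 from 86640638 to 86643741 (1785578 bp), chromosome 6 from 94125637 to 94130773 (1684498 bp), chromosome 2 from 124669776 to 124675402 (1520051 bp) and chromosome 4 from 85886560 to 85888877 (1459967 bp). None of these 10 peaks was longer than 5627 bp.

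The 697 peaks closest to the REH-only peaks were mostly sites that REH shared. Of the 1262 nearest 697 peaks, counted once for each REH-only peak, 839 (66.5%, 95% Wilson interval 63.8 to 69.0) overlapped a REH peak. A 697 peak nearest to several members was counted for each of them, and the interval treats these repeats as separate. Of all 73460 autosomal 697 peaks, each counted once, 28312 overlapped a REH peak (38.5%, 38.2 to 38.9). These were not limited to 697 peaks near a REH peak, so the 38.5% is not a like-for-like baseline. The comparison peaks were measured in a similar way, but with no lower limit on the distance. The nearest 697 peak beside them, leaving out those over them, overlapped a REH peak in 4207 of 8394 cases (50.1%, 49.0 to 51.2). These distances began at 0 bp, against 1001 bp for REH-only peaks by the rule. Other REH peaks lay at least 749 bp from a comparison peak, so a 697 peak that ends before that distance cannot overlap them. The lower decile of these distances was 1026 bp and the median 3960 bp, so this concerns a small part of the cases. As the lower limits differ, the 50.1% is not a like-for-like baseline for the 66.5% either, and the effect of distance on it was not tested. The percent among REH-only peaks changed little with distance, being 68.3% (63.9 to 72.4) for the 451 with a 697 peak within 10000 bp and 64.1% (58.4 to 69.4) for the 287 with none within 100000 bp. These nearest 697 peaks had a median length of 817 bp (785 to 877), against 869 bp (863 to 876) for all autosomal 697 peaks.

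The surroundings of the REH-only peaks held fewer peaks of both cell lines. Within 500000 bp of the middle of the peak, a REH-only peak had a median of 22 other REH peaks (20 to 23) and a comparison peak 31 (31 to 32). For 697 peaks the medians were 26 (24 to 29) and 57 (56 to 58), a count that the rule itself lowers in the former and raises in the latter. REH peaks outnumbered 697 peaks in this window around 504 of the REH-only peaks (39.9%) and around 721 of the comparison peaks (8.59%). Around 727 REH-only peaks (57.6%) the 697 peaks were still the more numerous.

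Although their wider surroundings were poorer in peaks, the REH-only peaks were about as close to the next REH peak as the comparison peaks were. The median distance to the nearest other REH peak of any length was 5087 bp (4507 to 5600) for REH-only peaks and 4827 bp (4674 to 5010) for comparison peaks, so the intervals overlap. Longer peaks had closer neighbours in both sets. Among peaks of 2 to 3 kb the medians were 5739 bp (5159 to 6711) and 6388 bp (6087 to 6692), and among peaks of 3 to 10 kb they were 4040 bp (3389 to 4650) and 3606 bp (3373 to 3821), a split by length chosen after the values were seen. The REH-only median was the lower in the first class and the higher in the second, with overlapping intervals in both. The smallest distance was 752 bp for REH-only peaks and 749 bp for comparison peaks.

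**Figure D2:**
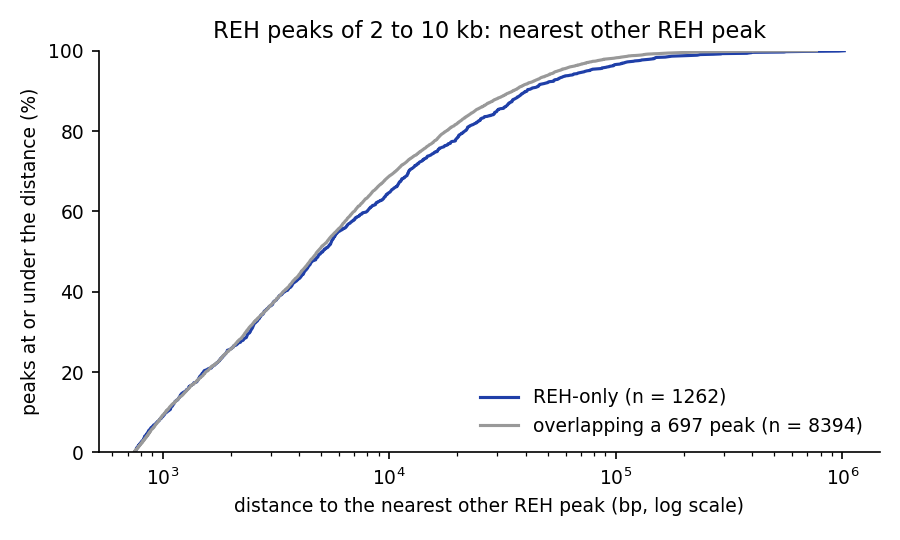
Cumulative percent of peaks (y axis) by distance in bp to the nearest other REH peak of any length (x axis, log scale) for the 1262 REH-only peaks (blue) and the 8394 comparison peaks (grey). The curves run together up to the medians of 5087 and 4827 bp and part above 10000 bp, where the REH-only curve is lower.

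With all lengths together, the sets differed in the upper tail. No other REH peak lay within 10000 bp of 446 REH-only peaks (35.3%, 32.8 to 38.0) and of 2621 comparison peaks (31.2%, 30.2 to 32.2). For 100000 bp the counts were 44 (3.49%, 2.61 to 4.65) and 149 (1.78%, 1.51 to 2.08). By length, the upper decile of the distance was 42476 bp for REH-only and 43157 bp for comparison peaks of 2 to 3 kb, and 38089 and 24740 bp for those of 3 to 10 kb. The REH-only value was thus above the other in the longer class and slightly below it in the shorter, which holds 800 of the 1262 members. Peaks that stood alone in both lists were few, since 36 of the 1262 REH-only peaks had neither another REH peak nor a 697 peak within 100000 bp (2.85%, 2.07 to 3.92). The 5 with the largest distance to another REH peak lay on chromosome 8 from 116462604 to 116465660 (1018232 bp), chromosome 7 from 119623731 to 119626900 (963415 bp) and from 145653218 to 145655723 (692788 bp), chromosome 4 from 35343439 to 35345680 (556485 bp), and chromosome 3 from 166640944 to 166643670 (554627 bp). They were chosen after their values were seen, and they were 2242 to 3170 bp long.

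REH-only peaks lay next to each other more often than their share of the peaks. The nearest other REH peak of 2 to 10 kb was itself REH-only for 414 of the 1262 (32.8%, 30.3 to 35.4), for 822 of the 8394 comparison peaks (9.79%, 9.18 to 10.4), and 13.0% of the peaks in this length range were REH-only. When the nearest other REH peak of any length was taken, it met the distance rule for 836 REH-only peaks (66.2%, 63.6 to 68.8) and 2149 comparison peaks (25.6%, 24.7 to 26.5), against 32.5% of all autosomal REH peaks. A neighbour that lies closer to a member than the nearest 697 peak does tends to meet the distance rule too, so part of this is fixed by the rule. The percents were higher in the classes farther from 697, though not at every step. These classes are made from the distance that the rule uses. Far from a 697 peak, a close neighbour meets the distance rule by construction, so the rise across the classes is not a separate result. With a 697 peak within 5000 bp, 21 of 272 REH-only peaks had a REH-only neighbour of 2 to 10 kb (7.72%, 5.10 to 11.5), which is below the 13.0% among all peaks of this length. At over 10000 to 50000 bp it was 120 of 403 (29.8%, 25.5 to 34.4), at over 50000 to 100000 bp 69 of 121 (57.0%, 48.1 to 65.5), at over 100000 to 500000 bp 122 of 224 (54.5%, 47.9 to 60.9), and beyond 500000 bp 49 of 63 (77.8%, 66.1 to 86.3).

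**Figure D3:**
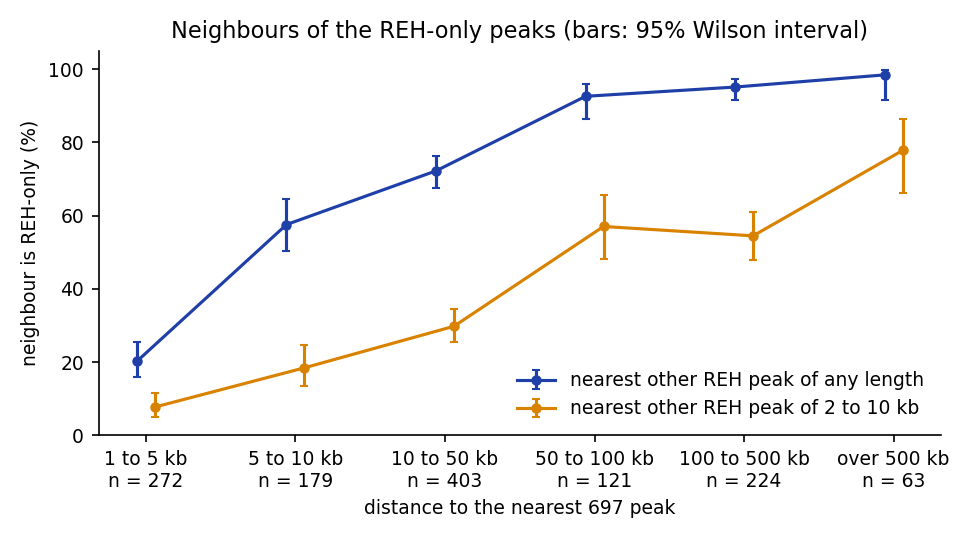
Percent of REH-only peaks whose nearest other REH peak also had no 697 peak within 1000 bp (y axis), by distance to the nearest 697 peak (x axis, with the number of peaks in each class), for neighbours of any length (blue) and of 2 to 10 kb (orange), with bars for the 95% Wilson interval. For neighbours of any length the percent rose from 20.2% in the class nearest to a 697 peak to 98.4% in the farthest. The rule uses the distance on the x axis, so part of this rise is fixed by the rule.

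Most REH-only peaks nevertheless had no other member close by. When members with at most 50000 bp between them were linked, 958 of the 1262 stood alone, 108 pairs were formed, and 27 clusters had 3 or 4 members. The clusters of 3 or more spanned 19285 to 90745 bp, with a median of 42350 bp, and 19 of the 27 held no 697 peak in their span. In the order along the chromosomes, among REH peaks of 2 to 10 kb, 62 runs had at least 3 REH-only peaks in a row and together held 242 of them. The stretches between consecutive 697 peaks give the same picture from the side of 697. There were 1029 such stretches with at least 1 member, of which 884 held 1, 100 held 2 and 45 held 3 or more. A further 10 members lay beyond the first or last 697 peak of their chromosome.

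The 7 clusters of 4 members were each in a different place. The most compact lay on chromosome 18 from 71433067 to 71453992, where members of 3745, 2102, 3258 and 5336 bp covered 69.0% of 20926 bp, 66996 bp from the nearest 697 peak. On chromosome 16, from 82780873 to 82818799, the longest member of all was followed by 3 more, and together they covered 48.6% of 37927 bp. The cluster on chromosome 17, from 47047080 to 47110439, held members of 2909, 8758, 6974 and 3107 bp. Between its first and second members lay one of the REH peaks that were too long for the rule, of 17858 bp, and the span held 10 REH peaks of any length and 0 peaks of 697. The cluster on chromosome 10 from 125794726 to 125828851 held 1 peak of 697 in its span, and the distances of its members were 1576 to 15842 bp. The other 3 clusters lay on chromosome 12 from 71833355 to 71900302, chromosome 14 from 86701878 to 86772877 and chromosome 4 from 9692861 to 9783605. They spanned 66948 to 90745 bp, with 17.5% to 18.3% of it under members. The span on chromosome 4 held 2 peaks of 697, the nearest 8578 bp from a member, and the other 5 of the 7 clusters held none.

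Over larger distances, 836 of the 1970 bins of 1000000 bp that held a REH peak of 2 to 10 kb had at least 1 REH-only peak. Of these, 562 had 1, 173 had 2 and 101 had 3 or more, and 10 had 5 or more. The fullest bin, on chromosome 1 from 194000001 to 195000000, held 9 members among 10 REH peaks of this length. In order of position they were 2330, 4237, 7570, 7912, 4230, 7594, 2792, 4884 and 4847 bp long, and their nearest 697 peak was 18338, 167678, 217258, 211392, 125865, 74064, 17180, 8224 and 12489 bp away. Of these, 3 were longer than 7000 bp, a length reached by 22 of the 1262 members. A REH peak of 10428 bp from 194696806 to 194707233, too long for the rule, lay between the fifth and the sixth member. The stretch of 529104 bp without a 697 peak, from 194268423 to 194797526, held 7 of the 9 members and 17 REH peaks in all.

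The second bin, on chromosome 14 from 86000001 to 87000000, held 8 members among 9 REH peaks of this length and 2 peaks of 697. It is the end of the longest run, of 10 REH-only peaks in a row from 85774666 to 86772877. Their lengths were 2071 to 4699 bp. All 10 lay in a single stretch of 4786161 bp without a 697 peak, in which 26 REH peaks of any length were called. They took up its last part, and the last member was 13394 bp from the 697 peak that closes it.

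On chromosome 6, the bin from 4000001 to 5000000 held 7 members and that from 6000001 to 7000000 held 6. In all, 12 and 13 REH peaks of this length and 14 and 32 peaks of 697 were called there. Of the 7 members, 5 lay in a stretch of 474886 bp without a 697 peak, from 4136768 to 4611653, which held 17 REH peaks of any length. Of the 6, 3 lay in such a stretch of 588960 bp from 5998066 to 6587025, with 9 REH peaks, and the others lay among the 697 peaks. The distances of the 7 members were 10789 to 202650 bp, and those of the 6 were 1567 to 253824 bp. A bin of chromosome 12, from 71000001 to 72000000, held 5 members, all of its REH peaks of this length, and no 697 peak. Another 5 bins also held 5, and the bin named was the first of these by fewest REH peaks and order of chromosome. Among the tied bins, that of chromosome 6 from 128000001 to 129000000 likewise had 5 of 5 and no 697 peak, and that of chromosome 18 from 71000001 to 72000000 had 5 of 5 with 11 peaks of 697.

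**Figure D4:**
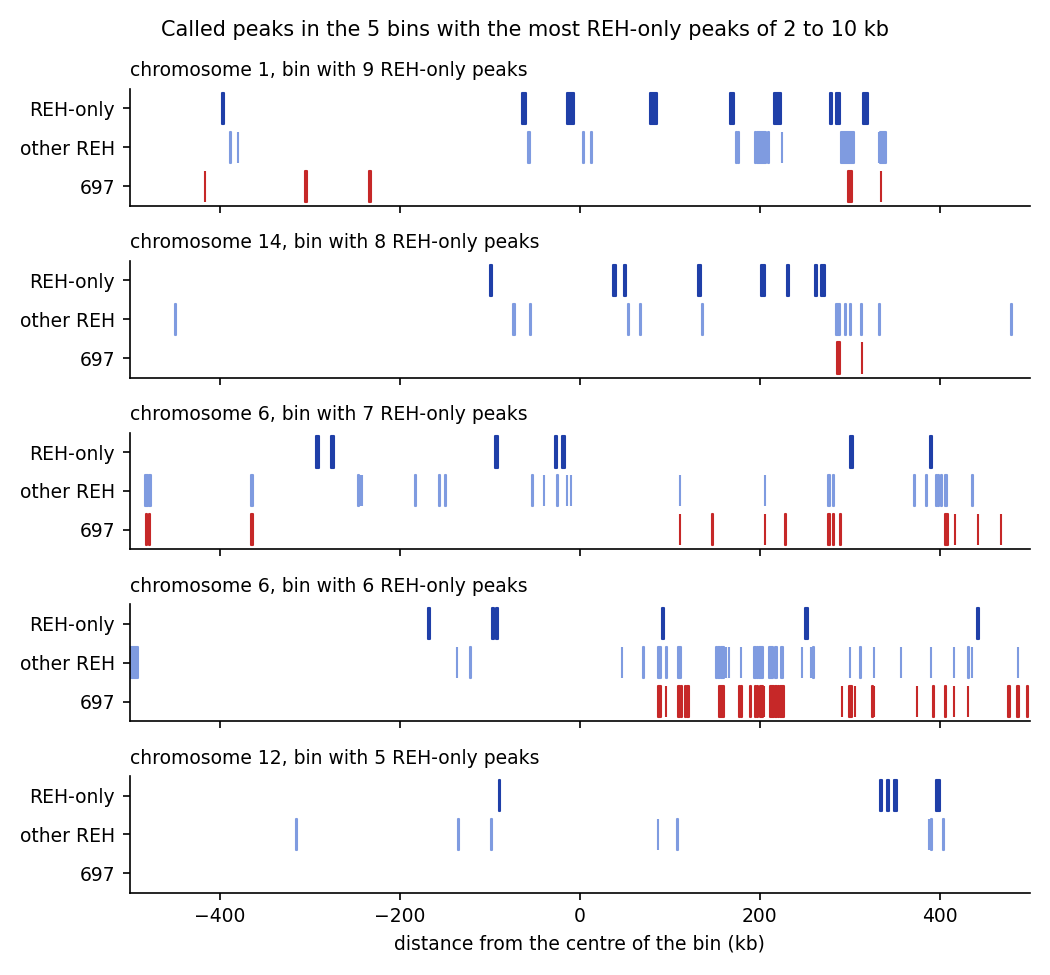
Called peaks in the 5 bins of 1000000 bp with the most REH-only peaks of 2 to 10 kb (1 panel each), by distance in kb from the centre of the bin (x axis), in rows for the REH-only peaks, the other REH peaks and the 697 peaks. The bin of chromosome 12 has no 697 peak, while in the bins of chromosome 6 with 7 and 6 members, 5 and 3 REH-only peaks lie together in a stretch without one and the others lie among 697 peaks.

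The study followed 4 lncRNAs in REH cells, and the axes of its track plots place them on hg19. REH-only peaks of 2 to 10 kb were found in the window of 1 of these, lnc-TIMM21-5 on chromosome 18. This lncRNA is transcribed away from the neighbouring gene NETO1, which encodes an auxiliary subunit of glutamate receptors. The window had 4 REH peaks and 0 peaks of 697, and 2 of the REH peaks were members. The peak that lay near the 5′ ends of both genes as drawn, from 70533947 to 70537252 (3306 bp), was 203004 bp from the nearest 697 peak and 36684 bp from the nearest other REH peak. The peak from 70434124 to 70436570 (2447 bp) was 303686 bp from the nearest 697 peak and 57261 bp from the nearest other REH peak. Among REH peaks of 2 to 10 kb, these 2 peaks open a run of 9 REH-only peaks in a row, which goes on to 72068741. It contains the compact cluster from 71433067 described above. Unlike the run on chromosome 14, it is broken by 697 peaks. Its member from 70785867 to 70788440 had a 697 peak 43061 bp to its left. The member from 71730248 to 71732372 had 697 peaks 78279 bp to its left and 17285 bp to its right. The window of lnc-RTN4R-1 held 2 REH peaks of 2 to 10 kb and that of lnc-NKX2-3-1 held 1, and these overlapped 697 peaks and are among the comparison peaks. The study reported broad H3K27ac over both of these lncRNAs in REH. An overlap of called peaks by at least 1 bp does not compare the level or the width of the mark between the lines. The lnc-ASTN1-1 window had 3 REH peaks and, like that of lnc-TIMM21-5, 0 peaks of 697. None of its REH peaks was as long as 2000 bp.

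REH-only peaks were found on all 22 autosomes, from 24 on chromosome 21 to 115 on chromosome 1. As a percent of the REH peaks of the same length on the same chromosome, they were most frequent on chromosome 4, with 85 of 401 (21.2%, 17.5 to 25.5), followed by chromosomes 18 (18.3%, 13.6 to 24.1), 7 (17.5%, 14.3 to 21.2) and 21 (17.1%, 11.8 to 24.2). Neighbours in this order did not differ beyond their intervals. They were least frequent on chromosome 17, with 48 of 602 (7.97%, 6.07 to 10.4), and on chromosome 20 (8.55%, 5.90 to 12.2). The intervals of chromosomes 4, 18, 7 and 6 lay above the 13.0% over all autosomes, and those of chromosomes 17, 20, 11, 16 and 19 lay below it. The excess on chromosome 4 was in the shorter peaks. Of its peaks of 2 to 3 kb, 62 of 224 were REH-only (27.7%, 22.2 to 33.9), the highest of any autosome, against 15.1% over all. Of those of 3 to 10 kb it was 23 of 177 (13.0%, 8.82 to 18.7), the fourth, against 10.5% over all (9.62 to 11.4).

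**Figure D5:**
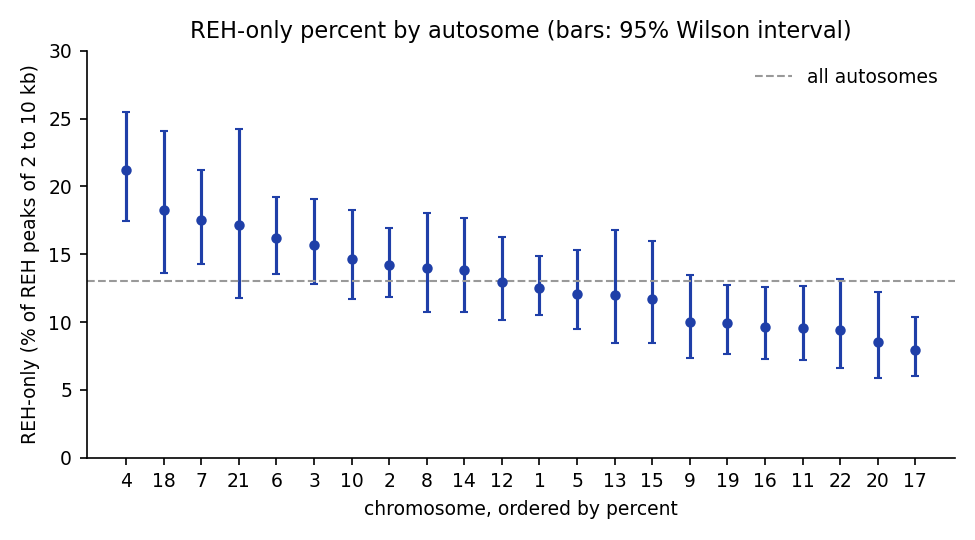
REH-only peaks as a percent of the autosomal REH peaks of 2 to 10 kb (y axis) on each autosome (x axis, ordered by the percent), with bars for the 95% Wilson interval and a dashed line at 13.0%, the value over all autosomes. Chromosome 4 is highest at 21.2% and chromosome 17 lowest at 7.97%.

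The number of 697 peaks for each REH peak differed between chromosomes as well, from 1.14 on chromosome 4 to 1.98 on chromosome 20. Across the 22 autosomes the percent REH-only was lower where this ratio was higher (Pearson's r = -0.55, Spearman's rho = -0.44). This is a description, since all points come from the same libraries and a lower number of 697 peaks itself leaves more REH peaks without one. Chromosomes 19 and 16 departed from it, with low ratios of 1.43 and 1.47 and low percents of 9.93% and 9.62%. The REH-only peaks of chromosome 19 were also close to 697 peaks, with a median distance of 5090 bp and 1 of 53 beyond 100000 bp. On chromosome 14, by contrast, 21 of 53 (39.6%) were beyond 100000 bp, of which 6 are in the run described above.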

How the data were processed

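H3K27ac ChIP-seq was performed on 1 REH and 1 697 library, with 1 input library for each line. Reads were aligned to hg19 by the authors with Bowtie (Bowtie2 in the submitters' processing notes) and called peaks with MACS. The methods name another MACS version than the file headers, which give 2.1.0.20150731. Per the headers, broad regions were called at a q-value of at most 0.1, and at most 1 tag was kept per position. Besides position and length in bp, the deposited lists hold the pileup signal, the fold enrichment as a ratio, and −log10 p-values and q-values, and none of these was used. The last REH peak of chromosome 1 ends at 249220297, so the lists were not combined with the GRCh38 reference at hand.

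Distances are the bases between the ends of peaks, and a 697 peak inside a REH peak counted as distance 0. Peaks of the length range were classified, their nearest neighbours found, and members linked across gaps of at most 50000 bp or counted in bins of 1000000 bp by their middle. Percents carry 95% Wilson intervals and medians 95% binomial intervals. The scripts were tested on simulated data, and 9715 of 9715 distances equalled those of bedtools 2.31.1. Work was done in Python 3.11.15 with pandas 2.3.3, numpy 2.4.6, scipy 1.17.1 and matplotlib 3.10.9. No test was made, since each cell line has 1 library.

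The members, lists and loci were chosen with earlier results of these data known. Peaks named are the 10 farthest from a 697 peak, the 10 longest, those at the limits, the 5 fullest bins and the largest clusters, all 7 of which are given because they tie. The windows of the lncRNAs are those on the axes of the study's track plots. Alternatives on the gap, the length, short 697 peaks, the reading of the rule, merging, chromosomes, the overlap, the link and the bin were tried. The tag depth behind a single peak was not examined, as the pileup signal in the lists was not used.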

Additional observations from a re-analysis of the deposited data

Results flagged for a closer look

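Chromosome X lies outside the rule on autosomes. Of its REH peaks of 2 to 10 kb, 43 of 233 had no 697 peak within 1000 bp (18.5%, 95% Wilson interval 14.0 to 23.9), a signal in data that the report does not use.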

How the results depend on the processing

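Of 95 alternative values, 58 stayed within the interval of the reported value, or within 1.5 times a reported count, and 37 did not. No alternative made the percent of REH-only neighbours higher for comparison peaks than for REH-only peaks. Every alternative kept a distance rule, and close neighbours of a REH-only peak tend to meet that rule too. The order is thus partly fixed by the rule, so its persistence is not a separate check. No paired analysis was possible because each cell line has 1 library. The count of REH-only peaks ranged from 462 to 1540. Locations against genes were not run, because no hg19 annotation was used, and a threshold on the p-values was not tried because the rule leaves them out.

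With a gap above 0 bp, 10.5% of the comparison peaks had a REH-only neighbour. With a gap above 5000 bp, 10.2% of the peaks were REH-only, the median distances were 33757 bp to a 697 peak and 7032 bp to another REH peak, 37.0% of the REH-only and 6.30% of the comparison peaks had a REH-only neighbour, 66 bins held at least 3 members, and 17.2% of the peaks on chromosome 4 and 5.98% on chromosome 17 were REH-only. With lengths from 3000 bp, there were 462 REH-only (10.5%) and 3925 comparison peaks, with median distances of 24472 bp to a 697 peak and of 4040 and 3606 bp to another REH peak. Then 28.8% and 7.44% had a REH-only neighbour, 5 clusters and 13 bins held at least 3 members, and the percents were 13.0% on chromosome 4 and 5.58% on chromosome 17. When 697 peaks under 500 bp were left out, 15.9% were REH-only, 12.6% of the comparison peaks had a REH-only neighbour and chromosome 17 had 10.8%. When a 697 peak counted only near either end of the REH peak, 14.8% were REH-only, with a median distance of 13497 bp to a 697 peak, and 11.3% of the comparison peaks had a REH-only neighbour. Merging gave median distances of 5654 and 5477 bp to another REH peak, since close neighbours are joined. Linking across 20000 bp gave 15 clusters of at least 3 members and across 100000 bp 44, and bins of 500000 bp gave 61 with at least 3. Among peaks of 2 to 3 kb, chosen after seeing the data, the medians were 5739 and 6388 bp, the neighbour percents 25.5% and 12.2%, and 2 clusters held at least 3 members. Fewer peaks enter with the narrower lengths, which lowers counts by construction. The wider gap also lowers the REH-only percent, on each chromosome too, and raises the median distance to a 697 peak by construction. It can only lower the neighbour percent of the comparison peaks and the number of bins with at least 3 members. A gap above 0 bp can only raise that neighbour percent. Leaving out short 697 peaks can only raise the REH-only percent, on each chromosome too. Counting a 697 peak only near either end can likewise only raise it, and then distances are measured from the ends, also to peaks inside. The link and the bin size set the counts of clusters and bins. For the other values the cause was not tested.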
